A study of Mus musculus with 8 samples.

Results

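The interaction between a miR-15 family sponge and the withdrawal of interleukin 7 (IL-7) was measured in wk3, a line of mouse pre-B cells. For each gene the withdrawal change in cells with the miR-15 sponge was compared with the withdrawal change in cells with a scrambled sponge. All 8 arrays of the series entered this comparison, 2 in each of 4 groups, and all 21320 genes or annotated features that passed the filter on signal were tested. The first group was wk3 cells, genotype SLP-65-/-, with the control vector for a scrambled sponge in excessive IL-7. The second was the same cells and vector after 36 h without IL-7. The other groups carried the miR-15 sponge, one with IL-7 and one after 36 h without it. In all 4 groups the cells lacked the adaptor protein SLP-65, carried a retroviral vector and had been selected with puromycin. Both replicates of a group were described as separate experiments, each with its own newly made clones, but of this single line. The interaction is positive where the change on withdrawal was more positive in sponge cells than in scrambled cells. It measures how far the withdrawal response of a gene differed between the constructs. A missing call does not show that the response was the same.

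IL-7 is the cytokine that keeps early B cell precursors dividing and alive, through JAK kinases and the transcription factor STAT5. When it is removed, pre-B cells leave the cell cycle and start to recombine their immunoglobulin light chain genes, which needs the recombinase proteins RAG1 and RAG2. The miR-15 family is a group of microRNAs best known for lowering the messenger RNAs of cell cycle and survival genes, among them cyclin E, cyclin D, WEE1 and BCL2. A sponge is an RNA that offers such a family a surplus of sites to bind and so draws it away from its other targets. RNA levels of cell cycle genes are held down in resting cells by E2F repressors and by the DREAM complex, which bind E2F-type sites and the cell cycle homology region (CHR) of promoters.

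The 6 microRNAs that the sponge was designed for share 1 seed, the bases 2 to 8 that pair with a target. Their mature sequences from RefSeq (GRCm38.p6) are shown 5′ to 3′ to make that shared seed visible, with the seed in capitals. They matched by name, and RefSeq lists the mouse members of miR-195 and miR-497 as miR-195a and miR-497a.
miR-15a-5p: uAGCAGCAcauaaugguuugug
miR-15b-5p: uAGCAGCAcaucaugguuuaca
miR-16-5p: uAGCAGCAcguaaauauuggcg
miR-195a-5p: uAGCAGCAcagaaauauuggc
miR-322-5p: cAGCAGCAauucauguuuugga
miR-497a-5p: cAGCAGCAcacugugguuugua
The seed AGCAGCA was the same in all 6, and the members differed mainly in their 3′ ends. The arrays measured messenger and long non-coding RNA, so the microRNAs themselves have no value here. Of the host transcripts, Dleu2, which carries miR-15a and miR-16, had an interaction of -0.22 (95% interval -0.92 to 0.47). Smc4, which carries miR-15b and the other copy of miR-16, had an interaction of 0.81 (interval 0.38 to 1.24, adjusted p = 0.0596, limma).

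Values are log2 signals relative to the array's own 75th percentile, from Agilent one-colour arrays. Between 50.6% and 56.6% of the 59305 non-control spots of an array were well above background. The 2 arrays of a group correlated at r = 0.990 to 0.997 across genes (genes are not replicates), and scrambled cells with IL-7 were the least alike, with 1168 genes more than 1 log2 unit apart against 193 to 520 in the other groups. All arrays lay on 1 slide in 2 columns and 4 rows, with the IL-7 arrays in one column and each clone in a row of its own, so slide position cannot be told apart from IL-7 or from the construct. All 8 B lineage markers were measured and well above background on every array. Of markers of other cells, 5 of 12 for T cells, 7 of 12 for myeloid and 4 of 8 for NK cells passed the filter. So did 4 of 8 for erythroid cells and 1 of 8 for fibroblasts. With the 8 B lineage markers 29 were measured, and 0 of them were called in the interaction by limma, beside 5.27% of all genes. An unadjusted p under 0.05 (limma) was found for 3, 2 for T cells and 1 for NK cells, beside 23.2% of all genes. The probe for Blnk, which encodes SLP-65, gave log2 values of 7.16 to 8.24 in all arrays. Its place relative to the deleted part of the gene is not known here, so it does not check the genotype.

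Fewer genes passed the test on withdrawal in sponge cells than in scrambled cells, among genes that rose and genes that fell alike. In scrambled cells 4415 genes rose (20.7% of those tested) and 5837 fell (27.4%) at an adjusted p under 0.05 (limma, Benjamini-Hochberg). In sponge cells 1689 rose (7.92%) and 3250 fell (15.2%). Counts of list members that rose or fell use the same threshold, and these shares of all genes stand beside them. A member that did not pass may still have changed. The changes of the 2 constructs, which share no array, correlated at r = 0.728 across genes. The interaction was called for 1124 genes, 921 with a positive value (4.32%) and 203 with a negative one (0.952%). At an unadjusted p under 0.05 there were 2734 positive and 2210 negative values, 23.2% of all genes together, against 5.27% called. Over the 921 genes the median change was -1.50 in scrambled cells and -0.44 in sponge cells. Of these genes 872 had negative changes in both constructs, 6 had positive changes in both and 43 had changes of opposite sign. Over the 203 genes the median change was 1.19 in scrambled and 0.33 in sponge cells, and 150 had positive changes in both. The median interaction of all genes was -0.04.

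Passing the threshold depended on single arrays, while all 1124 called genes kept the direction of their interaction without any 1 array. These genes were picked from the same arrays, so the kept direction is no separate check. Adjusted p-values of called genes lay between 0.0307 and 0.0499, and 0 genes were under 0.03. With the replicate number as a replicate block (the numbers were taken to mark the separate experiments), 0 genes were called by limma (smallest adjusted p = 0.0508, 5104 genes at an unadjusted p under 0.05). In this balanced design the block leaves the interaction value of a gene measured on all arrays as it is and alters only its error. Without 1 array, 0 genes were called when either sponge array with IL-7, either sponge array without IL-7 or scrambled replicate 2 without IL-7 was left out. Without scrambled replicate 1 with IL-7 there were 10 positive and 2 negative calls. Without scrambled replicate 2 with IL-7 there were 892 and 724, and without scrambled replicate 1 without IL-7 there were 721 and 72. These limits hold for every count of interaction calls given for a list. Beside each such count stand the shares of all genes tested, 4.32% called positive, 0.952% called negative and 5.27% in either direction.

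**Figure D1:**
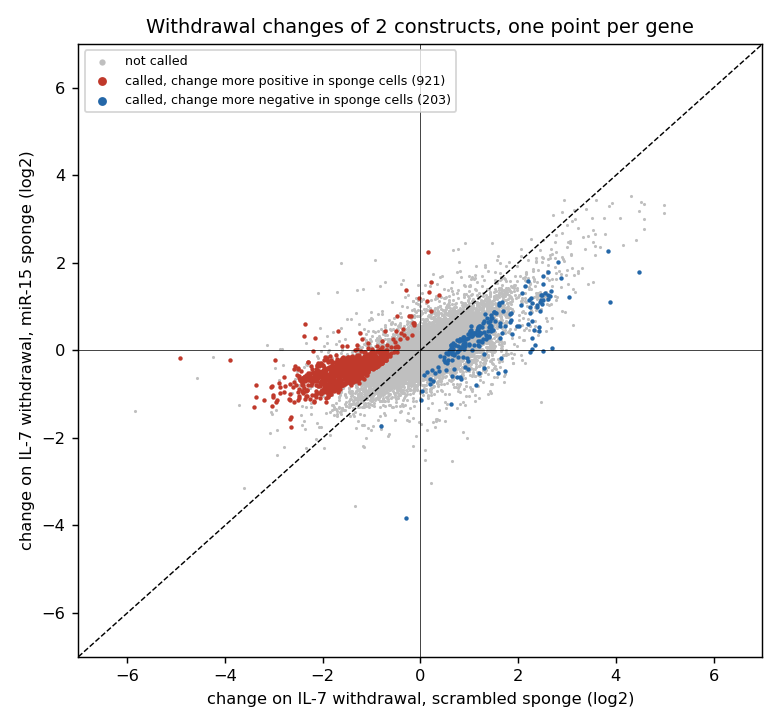
Change on IL-7 withdrawal in scrambled cells (x axis, log2) against the change in miR-15 sponge cells (y axis, log2), with 1 point per gene and a dashed line of equal change. The 921 genes with a positive interaction (red) lie above that line, mostly where both changes are negative, and the 203 with a negative interaction (blue) lie below it.

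DNA replication genes showed the largest median interaction of the 23 gene lists. All 45 members were measured. In scrambled cells 44 of 45 fell, with a median change of -2.25. In sponge cells 30 of 45 fell, with a median change of -0.70, which is 31.0% of the scrambled median. On withdrawal in sponge cells 43 of 45 had an unadjusted p under 0.05 (limma). In these bulk cultures fewer cycling cells and less RNA per cell cannot be told apart. The interaction was called for 36, all with a positive value, and its median was 1.41 (1.34 in experiment 1 and 1.49 in experiment 2, and 1.23 to 1.65 over 18 alternative settings). Under the replicate block 43 of 45 had an unadjusted p under 0.05 in the interaction (limma), beside 5104 of all 21320 genes. Cdc6, which loads the replicative helicase onto origins, had log2 signals of 2.00 and 1.79 in scrambled cells with IL-7 and -0.72 and -1.58 without. In sponge cells they were 2.49 and 2.40 with IL-7 and 1.71 and 1.52 without. The scrambled arrays without IL-7 lay below all 6 other arrays, and the interaction was 2.22 ± 0.39 (SE, 2 arrays per group, adjusted p = 0.0387, limma). Mcm5, a subunit of that helicase, read 5.94 and 5.99 with IL-7 and 3.62 and 3.15 without in scrambled cells, against 6.31 and 6.46 and then 5.66 and 5.67 in sponge cells. The fall of Mcm5 passed the test in both constructs, at -2.59 and -0.72. All 6 helicase subunits were called, from Mcm7 (interaction 1.01) to Mcm6 (1.91), as were the origin protein Orc1 (1.77), the lagging-strand ligase Lig1 (2.00), the polymerase subunit Pola1 (1.89) and the clamp Pcna (1.46). The exception in direction was Prim2, a primase subunit, with an interaction of -0.06 and a change of -0.11 in scrambled cells. Prim1, the other primase subunit, had an interaction of 1.76.

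Repair genes and the enzymes that make DNA precursors also had positive median interactions, 1.14 and 0.73. Of 30 measured genes of homologous recombination and the Fanconi pathway, 27 fell in scrambled and 17 in sponge cells, with medians of -1.68 and -0.52. The interaction was called positive for 19 (median 1.14). Exo1, a DNA end-resecting nuclease, read 3.54 and 3.50 with IL-7 and 1.28 and 0.82 without in scrambled cells. In sponge cells it read 3.89 and 3.94, then 3.30 and 3.18, an interaction of 1.80 ± 0.22. Brca1 (1.76) and Fancd2 (1.58), of the Fanconi pathway, were called. Msh6, a mismatch repair gene on the same list, was not called, with an interaction of 0.11 (interval -0.15 to 0.37). Of 29 nucleotide synthesis genes, 27 fell in scrambled and 20 in sponge cells and 13 were called positive (median interaction 0.73). Among them were Dut (1.83) and Rrm2 (1.65), which act on deoxynucleotides, and Mthfd1 (1.40) of the folate cycle. The purine enzyme Atic, with changes of -0.70 in both constructs, had an interaction of 0.00 (interval -0.67 to 0.68).

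Genes of mitosis had a smaller fall in scrambled cells than replication genes, and in sponge cells most members did not pass the test. All 50 measured members fell in scrambled cells (median -1.45) and 9 fell in sponge cells (median -0.33, or 23.0% of the scrambled median). On withdrawal in sponge cells 28 of 50 had an unadjusted p under 0.05 (limma). All 50 interactions were above 0, between 0.51 and 1.76 in the 49 well above background on all arrays, and 35 were called (median 1.11, and 0.94 to 1.27 over the alternatives). Without IL-7 all 50 were higher in sponge than in scrambled cells by limma (16.7% of all genes tested), and with IL-7 0 of 50 were called higher by limma (0.314% of all genes). With IL-7, 2 of 50 had an unadjusted p under 0.05. Foxm1, a transcription factor of mitotic genes, read 3.66 and 3.62 with IL-7 and 2.10 and 1.74 without in scrambled cells. Sponge cells read 3.82 and 3.94 with IL-7 and 3.63 and 3.62 without, so both sponge arrays without IL-7 lay at the level of scrambled cells with IL-7. The interaction of Foxm1 was 1.47 ± 0.18 (adjusted p = 0.0307, limma). Kif11, the motor that separates the spindle poles, had a change of -1.72 in scrambled and -0.24 (adjusted p = 0.23) in sponge cells. Espl1, the protease separase, had changes of -1.66 and -0.23. The probe for Aurkb, the kinase of the chromosomal passenger complex, was not well above background on either scrambled array without IL-7. Its fall in scrambled cells was at least 3.66-fold, and its fitted interaction of 2.30 was 0.25 with normexp background correction. The proliferation marker Mki67 was not called (0.78, interval 0.28 to 1.28, adjusted p = 0.0909).

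**Figure D2:**
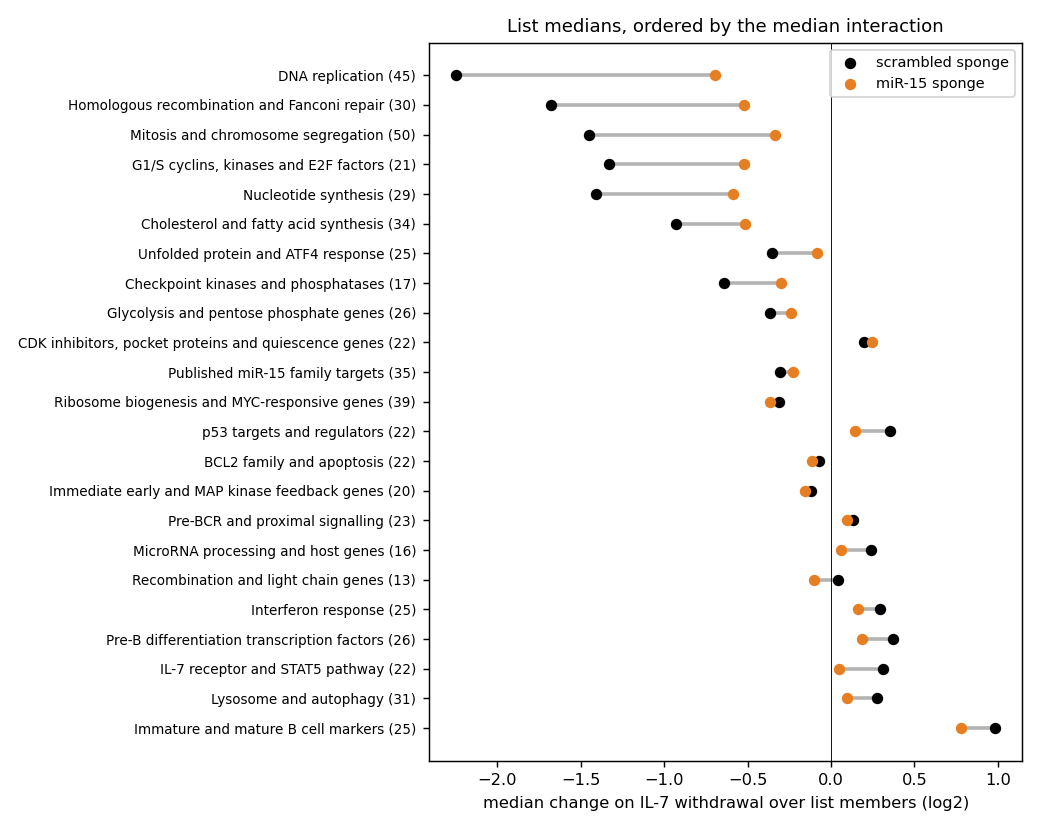
Median change on IL-7 withdrawal (x axis, log2) over the measured members of 23 gene lists, whose number is in brackets, for scrambled cells (black) and miR-15 sponge cells (orange). The distance between the points is widest for DNA replication (-2.25 and -0.70), repair and mitosis, and the 2 medians of ribosome biogenesis (-0.31 and -0.37) nearly meet.

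The regulators of entry into S phase were led by Ccne1. Ccne1 encodes cyclin E1, the activator of CDK2 at the G1/S transition and a known miR-15 target. It read 4.30 and 4.20 in scrambled cells with IL-7 and 1.38 and 0.38 without. In sponge cells it read 4.82 and 4.96, then 4.15 and 4.06. All 4 sponge arrays thus lay within 1 log2 unit of scrambled cells with IL-7, and the interaction was 2.58 ± 0.43 (interval 1.52 to 3.64, adjusted p = 0.0355, limma, 2.25 and 2.92 in the experiments). The change in sponge cells, -0.79, did not pass the test (adjusted p = 0.12). Of the 21 measured members of the G1/S list, 19 fell in scrambled and 10 in sponge cells and 9 were called positive. They included the transcription factors E2f1 (1.44) and Tfdp1 (0.99), the repressors E2f7 (1.75, although its 2 probes gave 0.56 and 1.75) and E2f8 (1.68), the kinase gene Cdk2 (1.12) and Skp2 (1.33). Ccne2 and Ccnd1 did not pass the signal filter.

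The D-type cyclins and their kinases differed from cyclin E. Ccnd2, which encodes cyclin D2 of pre-B cells, read 0.47 and 0.71 with IL-7 and -0.55 and -0.38 without in scrambled cells. In sponge cells it read 0.15 and 0.37, then -1.11 and -0.95. It fell in both constructs, by 1.05 and by 1.29, with an interaction of -0.24 (interval -0.70 to 0.22), so that a difference of 1 log2 unit lies outside the interval. Cdk6 had an interaction of 0.18 (interval -0.36 to 0.73). Ccnd3 (0.45, adjusted p = 0.121) and Cdk4 (0.49, adjusted p = 0.0808) had positive values that were not called.

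Published targets of the miR-15 family did not move as 1 group. Of 35 measured targets, 9 were called positive and 1 negative, beside 4.32% and 0.952% of all genes. Of the 35, 18 had an interaction above 0, and the median was 0.01 (-0.05 to 0.07 over the alternatives), beside -0.04 for all genes. The 9 were Ccne1, E2f7, Bcl2, Nusap1, Wee1, Anln, Birc5, Ucp2 and Cdc25a. Of these, 3 also belong to the mitosis list as counted here (Nusap1, Anln and Birc5). Ccne1, E2f7 and Cdc25a are on the G1/S list as well, and Wee1 and Cdc25a on the list of checkpoint genes. Wee1, the kinase that restrains CDK1, read 2.50 and 2.54, then 1.07 and 0.83 in scrambled cells, and 3.13 and 3.03, then 2.81 and 2.70 in sponge cells (interaction 1.25 ± 0.15). Cdc25a, a phosphatase that activates CDKs, had an interaction of 0.80 ± 0.13. The called gene in the other direction was Insr, the insulin receptor, at -0.73. Among targets that were not called, Chek1 had an interaction of 0.01 with a wide interval (-0.85 to 0.88), and its scrambled arrays with IL-7 read -2.43 and -3.13. Mcl1, a survival gene, had an interaction of -0.09 (-0.39 to 0.20).

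Inhibitors of the cycle were split. Of 22 measured CDK inhibitor, pocket protein and quiescence genes, 4 were called positive and 1 negative (median 0.06). Cdkn1a, which encodes the CDK inhibitor p21, fell by 1.83 in scrambled cells and had a change of -0.22 in sponge cells, with an interaction of 1.61 ± 0.14. Its 3 probes gave interactions from 0.12 to 1.61, and with the mean over probes the value was 0.85 and the call was lost (adjusted p = 0.0962). The pocket protein gene Rbl1 (1.46), Cdkn2c (1.12) and Cdkn2a (0.78) were called in the same direction. Cdkn1b, which encodes p27 and rose in scrambled cells by 0.39, had an interaction of -0.19 (interval -0.48 to 0.10). The antiproliferative gene Btg2 rose in both constructs, by 1.80 and 2.03. Of 17 checkpoint genes, 5 were called positive, beside 4.32% of all genes. They were Pkmyt1 (1.78), Wee1, Chek2 (0.97), Cdc25a and Topbp1 (0.71), while Atr (0.05) and Atm (-0.05), the kinases at the head of the checkpoint, had values near 0.

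**Figure D3:**
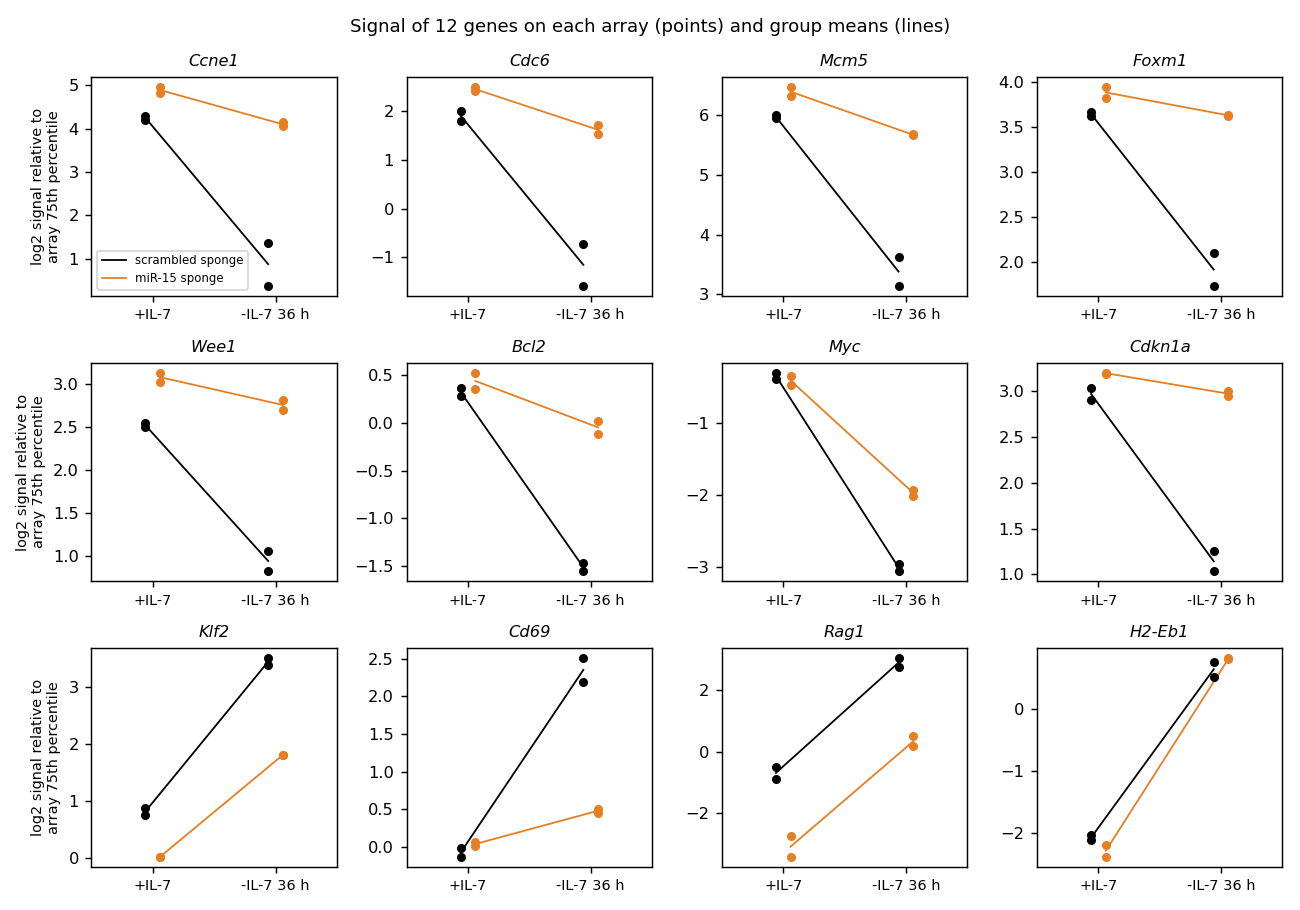
Log2 signal relative to the array's 75th percentile (y axis, scaled to each gene) of 12 genes with and without IL-7, with points for single arrays and lines between group means, for scrambled cells (black) and miR-15 sponge cells (orange). The lines of Ccne1, Cdc6, Mcm5 and Foxm1 diverge as scrambled cells fall, those of Cd69 diverge as scrambled cells rise, and those of Rag1 and H2-Eb1 run side by side.

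Promoters of the genes that diverged were set beside those of all genes, as the known sites of replication and mitosis genes differ. RefSeq windows of GRCm38.p6, from 250 bases before to 50 after a start, were matched by symbol for 11047 tested genes (13901 windows). Motifs were read on both strands. The E2F-type motifs were TTTGGCGC, TTTCCCGC, TTTCGCGC, TTTGCCGC, TTTGGCGG and TTTCCCGG, which can overlap one another. The CHR was TTTGAA or TTCGAA, and the CCAAT box was CCAAT. Some windows of each kind are shown because they carry the motif that is frequent in their list, with E2F-type and CHR matches in capitals.
Mcm6, chr1:128359656-128359955, minus strand: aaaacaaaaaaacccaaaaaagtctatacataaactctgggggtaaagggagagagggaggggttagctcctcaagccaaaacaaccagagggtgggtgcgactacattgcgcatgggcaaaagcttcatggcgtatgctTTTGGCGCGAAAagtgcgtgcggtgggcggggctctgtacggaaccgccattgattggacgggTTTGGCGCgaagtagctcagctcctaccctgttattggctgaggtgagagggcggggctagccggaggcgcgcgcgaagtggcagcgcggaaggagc
Mcm5, chr8:75109259-75109558, plus strand: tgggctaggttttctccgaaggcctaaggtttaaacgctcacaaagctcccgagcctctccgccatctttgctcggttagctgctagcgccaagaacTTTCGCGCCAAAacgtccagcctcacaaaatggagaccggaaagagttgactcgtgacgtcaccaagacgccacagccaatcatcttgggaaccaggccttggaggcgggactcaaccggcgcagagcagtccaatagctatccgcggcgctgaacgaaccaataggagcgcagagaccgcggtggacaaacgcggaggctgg
Cdc6, chr11:98907901-98908200, plus strand: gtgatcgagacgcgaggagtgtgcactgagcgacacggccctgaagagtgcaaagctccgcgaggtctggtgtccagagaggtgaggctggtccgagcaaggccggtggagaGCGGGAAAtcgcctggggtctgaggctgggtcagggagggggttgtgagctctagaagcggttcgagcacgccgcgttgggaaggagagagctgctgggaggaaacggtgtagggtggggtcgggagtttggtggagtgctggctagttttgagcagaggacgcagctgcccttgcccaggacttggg
Espl1, chr15:102296043-102296342, plus strand: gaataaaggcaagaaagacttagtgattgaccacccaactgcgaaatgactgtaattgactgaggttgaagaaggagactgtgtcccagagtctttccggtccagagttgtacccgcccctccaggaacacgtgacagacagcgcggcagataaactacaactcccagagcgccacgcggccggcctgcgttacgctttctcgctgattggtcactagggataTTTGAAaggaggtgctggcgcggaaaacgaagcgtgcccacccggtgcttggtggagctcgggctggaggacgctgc
Kif11, chr19:37376132-37376431, plus strand: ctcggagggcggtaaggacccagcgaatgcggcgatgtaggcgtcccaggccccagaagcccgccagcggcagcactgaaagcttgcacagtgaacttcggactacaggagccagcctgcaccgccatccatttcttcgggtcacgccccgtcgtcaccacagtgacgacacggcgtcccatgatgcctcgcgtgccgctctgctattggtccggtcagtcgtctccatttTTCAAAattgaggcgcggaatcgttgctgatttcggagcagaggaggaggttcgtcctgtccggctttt
The window of Mcm6 held 3 E2F-type matches, at -110, -106 and -47 from the start, and that of Mcm5 held 2, at -153 and -149. The window of Cdc6 held 1, at -138. Espl1 and Kif11 held 0 E2F-type matches and 1 CHR each, at -27 and -19. The Ccne1 window held 0 E2F-type and 0 CHR matches, which says only that these letters are not in this window.

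The motif shares differed by list. Of the 705 windows of genes called positive, 16.5% held an E2F-type motif, against 1.81% of the 166 windows of genes called negative and 6.23% of the 13901 windows of all tested genes. A CHR was in 24.8%, 16.3% and 14.7% of these windows. Of the 41 windows of DNA replication genes, 41.5% held an E2F-type motif and 24.4% a CHR. Of the 47 windows of mitosis genes, 8.51% held an E2F-type motif, 74.5% a CHR and 80.9% a CCAAT box, for which the share over all tested genes was 38.0%. Repair genes had E2F-type motifs in 25.0% of 24 windows. The 92 windows of genes that rose alike in both constructs had 2.17% and 13.0% for the E2F-type motif and the CHR, and the 31 windows of genes that fell alike had 3.23% and 29.0%. The mean GC content was 59.4% in all windows, 61.4% for genes called positive and 55.8% for genes called negative. It was 56.0% and 52.6% for genes that rose and fell alike. The part of GC content in these shares was not tested, and windows of 1 gene overlap, so the shares are descriptions with no test.

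**Figure D4:**
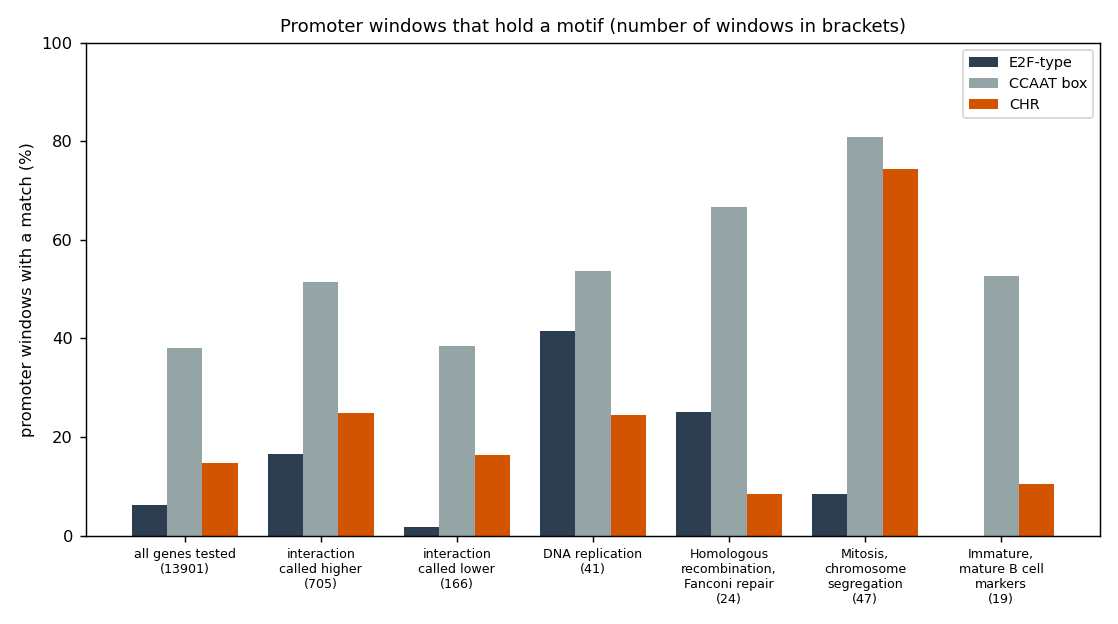
Share of promoter windows with at least 1 match (y axis, percent) to E2F-type motifs, the CCAAT box and the CHR, for 7 gene sets whose number of windows is in brackets. The E2F-type bar is highest for DNA replication (41.5%) and the CHR bar for mitosis (74.5%).

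Growth and survival genes were mixed. Bcl2, the survival gene that is both an IL-7 and a miR-15 target, read 0.36 and 0.29, then -1.47 and -1.56 in scrambled cells. In sponge cells it read 0.53 and 0.35, then 0.02 and -0.11. Bcl2 fell in both constructs, by 1.84 and by 0.49, and the interaction was 1.35 ± 0.13 (adjusted p = 0.0307, limma). Bok, a pore-forming family member, had a larger value (2.09). Of 22 measured genes of the BCL2 family and apoptosis, 3 were called, all positive, beside 4.32% of all genes called positive. The pro-apoptotic Bmf rose alike, by 1.83 and 1.58. Myc, the growth regulator, fell by 2.67 in scrambled and by 1.57 in sponge cells (interaction 1.10 ± 0.12, but 0.48 with normexp background correction). Of 39 ribosome biogenesis and MYC-responsive genes, 21 fell in scrambled and 20 in sponge cells, with medians of -0.31 and -0.37, and the median interaction was 0.00. Npm1, a nucleolar chaperone, fell by 0.94 and by 0.92 (interaction 0.01, interval -0.29 to 0.31), and the rRNA methyltransferase gene Fbl fell by 0.60 and by 0.59. The 4 called members were Myc, the MYC antagonists Mxd3 (1.68) and Mxd4 (0.88), and Nme1 (0.76, with 3 probes from -0.08 to 0.76).

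Lipid synthesis genes fell in both constructs. Of 34 cholesterol and fatty acid synthesis genes, 28 fell in scrambled and 23 in sponge cells. The sponge median of -0.52 was 55.4% of the scrambled median of -0.93, 7 were called positive and the median interaction was 0.35. Acaca, the first enzyme of fatty acid synthesis, had 1.05, and Fdps, of the mevalonate pathway, had 0.84. Hmgcs1, of the same pathway, fell by 1.12 and by 0.80 with no call (interval 0.03 to 0.62). Of 26 genes of glycolysis and the pentose phosphate pathway 3 were called, all positive, beside 4.32% of all genes called positive. They were Aldoc (0.86), Gapdh (0.62) and Pgk1 (0.61).

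Among the genes with negative interactions, Cd69 had a large value (-1.98) and was well above background on all 8 arrays. Cd69, an early activation marker of lymphocytes, read -0.02 and -0.13 with IL-7 and 2.20 and 2.51 without in scrambled cells. Sponge cells read 0.06 and 0.01, then 0.51 and 0.45. Only the 2 scrambled arrays without IL-7 were high, and Cd69 rose by 2.43 in scrambled and by 0.44 in sponge cells, an interaction of -1.98 ± 0.17 (adjusted p = 0.0307, limma). Klf2, a factor of lymphocyte quiescence, read 0.76 and 0.89, then 3.38 and 3.50 in scrambled cells. In sponge cells it read 0.03 on both arrays, then 1.81 on both. Klf2 rose in both constructs and was lower in sponge cells in each condition (interaction -0.84 ± 0.11). Socs1, a feedback inhibitor of JAK kinases, rose by 2.50 and by 1.51 (interaction -0.99 ± 0.18). The receptor gene Tnfrsf13c for the survival factor BAFF had -0.66, although its other probe gave -0.30. The lysosomal genes Gaa (-1.09) and Ctss (-0.64) and the interferon-induced Gbp3 (-0.85) were also called. Most members of their lists were not. Called negative were 2 of 25 B cell markers, 2 of 31 lysosome and autophagy genes and 1 of 25 interferon genes, beside 0.952% of all genes. The interferon list also held 2 positive calls, Psmb9 (0.52) and Tap1 (0.51), which act in antigen processing.

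Several of the other large fitted values came from probes near background, so bounds are given in place of exact differences, and the fitted values shrank with normexp background correction. The 12 with the largest values included 5430401H09Rik, Cybb, Kynu, Klra4, Cacna1e, B4galnt2, Gm11758 and Ankrd6, all not well above background on either scrambled array with IL-7 and well above it on both without. The rise of 5430401H09Rik in scrambled cells was at least 4.33-fold, and without IL-7 its scrambled level was at least 5.73-fold higher than that of sponge cells, in which it was not well above background. For B4galnt2 these bounds were at least 3.34-fold and 4.43-fold. For Kynu they were at least 1.94-fold and 2.57-fold. With normexp the interaction was -0.69 for 5430401H09Rik, -0.42 for Cybb, -0.38 for Kynu, -0.34 for Klra4, -0.19 for Cacna1e and -0.51 for B4galnt2. Tmco5 and Efcc1 were well above background on both sponge arrays with IL-7 and on neither scrambled array with IL-7. Ccdc153 had an interaction of -2.01 (-0.67 with normexp) with 1 of 2 scrambled arrays with IL-7 above background. Among positive values Strip2 (4.73), Rprm (2.74), Fam90a1b (2.72) and Ccdc96 (2.20) were not well above background on either scrambled array without IL-7. Fam90a1b was well above it on neither scrambled nor sponge array with IL-7. It thus passed the signal filter only through sponge cells without IL-7, where it is high, so its call is no separate sign of a difference. With normexp these 4 values were 1.67, 0.23, 0.14 and 0.06. The fall of Strip2 in scrambled cells was at least 21.6-fold, with readings of -0.07 and -1.73 against readings of -5.17 and -4.46 in sponge cells with IL-7. Strip2 was high in scrambled cells with IL-7. Tnfrsf14 was high there too, at 1.56 and 0.71 in scrambled cells with IL-7 and between -2.04 and -1.10 on the other 6 arrays, but its other probe gave an interaction of 0.02.

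Some called genes outside the lists of the cycle were well above background in all groups. Arc, an immediate early gene best known from neurons, read 0.47 and 0.39, then -1.57 and -1.90 in scrambled cells, and 0.23 and 0.38, then 0.54 and 0.64 in sponge cells. It fell in scrambled cells, its change in sponge cells was 0.28 (adjusted p = 0.17), and the interaction was 2.45 ± 0.18. Tcf19, a factor expressed with the G1/S genes, had 2.18 ± 0.29, and Acot7, an acyl-CoA thioesterase, had 2.16 ± 0.19. Rnf227, a RING finger gene, read -1.54 and -1.75, then -3.41 and -4.25 in scrambled cells, and between -1.30 and -1.23 on all 4 sponge arrays, with 2.17 ± 0.37 (0.95 with normexp). Dgcr8, the partner of Drosha in microRNA processing, fell by 0.95 in scrambled cells with a change of -0.06 in sponge cells (interaction 0.89 ± 0.09). The MAP kinase phosphatase gene Dusp1 (1.34) and Atf3 (0.97), a stress factor, had interactions of the same sign.

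For a minority of calls the response was larger in sponge cells, in 17 of the 921 positive and 14 of the 203 negative genes. Their symbols were picked after their values were seen. Cgas, the cytosolic DNA sensor, read -3.70 and -3.76, then -3.36 and -3.65 in scrambled cells, and -3.33 and -3.01, then -1.71 and -1.53 in sponge cells. Cgas rose in sponge cells by 1.55 and had a change of 0.22 in scrambled cells (interaction 1.33 ± 0.21). Arhgef10l rose in sponge cells by 1.12 with a change of 0.14 in scrambled cells. Mxd4 started lower in sponge cells with IL-7, at 1.52 and 1.58 against 2.70 and 3.01, and rose by 1.25 against 0.38. Trib3, a pseudokinase of the ATF4 stress response, started higher in sponge cells, at 0.33 and 0.25 against -1.57 and -1.61, and fell by 1.72 against 0.81 (interaction -0.91 ± 0.09). For Mxd4 and Trib3 the 2 constructs differed by limma with IL-7 present, by -1.30 and 1.88, and less after withdrawal, by -0.43 and 0.97. Calls between the constructs with IL-7 were few, 67 genes higher in sponge cells (0.314%) and 174 lower (0.816%), against 3571 higher (16.7%) and 3270 lower (15.3%) without IL-7.

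Both recombinase genes and the kappa constant region rose in both constructs with no call in the interaction. Rag1 read -0.88 and -0.50 with IL-7 and 2.75 and 3.04 without in scrambled cells. In sponge cells it read -3.42 and -2.75, then 0.17 and 0.50. Rag1 rose in both constructs, by 3.59 and by 3.43, from levels 2.39 lower in sponge cells, so sponge cells without IL-7 lay above scrambled cells with IL-7 and below those without. The interaction was -0.17 with an interval of -1.10 to 0.77 (adjusted p = 0.825, limma), and -0.99 with a call under normexp background correction (adjusted p = 0.0478). Rag2 read -0.38 and -0.08, then 1.87 and 2.08 in scrambled cells and -1.90 and -1.69, then 0.07 and 0.46 in sponge cells. Its interaction was -0.15 (interval -0.78 to 0.49). Igkc, the kappa light chain constant region, read -4.08 and -3.91, then -1.33 and -1.12 in scrambled cells and -4.24 and -3.80, then -1.35 and -1.43 in sponge cells. Its levels overlapped between the constructs with IL-7, and its interaction was -0.14 (interval -0.72 to 0.43). Of the 13 recombination and light chain genes measured, 0 were called in either direction by limma, beside 5.27% of all genes, and 6 had an unadjusted p under 0.05, beside 23.2% of all genes. The median was -0.15. Of the 13, 6 rose and 4 fell in scrambled cells, beside 20.7% and 27.4% of all genes. In sponge cells 5 rose and 3 fell, beside 7.92% and 15.2% of all genes. The median changes were 0.04 in scrambled and -0.10 in sponge cells.

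Markers of more mature B cells rose in both constructs. Of 25 measured, 19 rose in scrambled and 17 in sponge cells, with medians of 0.99 and 0.78, and the sponge median was 79.0% of the scrambled one. H2-Eb1, a chain of the class II antigen-presenting molecule, read -2.11 and -2.03, then 0.53 and 0.77 in scrambled cells, and -2.38 and -2.18, then 0.81 and 0.82 in sponge cells. It rose by 2.72 and by 3.10, with an interaction of 0.38 (interval -0.02 to 0.78). Cd74, the class II invariant chain, rose by 3.86 and 3.29 (interaction -0.57, interval -1.20 to 0.06). Cd40, a co-stimulatory receptor, rose by 4.31 and 3.53 with an interaction of -0.78 (-1.54 to -0.01, adjusted p = 0.211), and with normexp it was -1.43 and called. Ms4a1, which encodes CD20, rose in scrambled cells by 3.15 and had a wide interval for the interaction (-4.47 to 0.82), and its scrambled arrays with IL-7 read -4.61 and -2.88. Of 26 transcription factors of the pre-B stage, 17 rose in scrambled and 5 in sponge cells. In the interaction 0 were called by limma and 4 had an unadjusted p under 0.05, beside 5.27% and 23.2% of all genes, so the count is near that background. Only 3 of the 26 had an interaction above 0 (median -0.19). Irf4, which drives light chain recombination, rose by 1.20 and 0.94 (interaction -0.26, interval -0.60 to 0.09), and Foxo1, which drives Rag1 and Rag2, rose by 0.81 and 0.71 (-0.10, interval -0.51 to 0.30).

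Genes of the IL-7 pathway had interactions from -0.99 (Socs1) to 1.35 (Bcl2), and these were the 2 calls among 22 measured, beside 5.27% of all genes. Il7r, the receptor gene, read between 5.59 and 5.87 on all 8 arrays, with an interaction of -0.01 (interval -0.30 to 0.27). Cish, a STAT5 feedback gene, rose in both constructs, by 1.35 and 1.06 (interaction -0.29, interval -0.64 to 0.06). Socs2 had -0.26 (interval -0.54 to 0.01). Of 23 genes of the pre-B cell receptor and its signalling, 0 were called by limma and 4 had an unadjusted p under 0.05, beside 5.27% and 23.2% of all genes, with a median of -0.08. The surrogate light chain genes Igll1 (0.06, interval -0.27 to 0.38) and Vpreb1 (-0.14, -0.55 to 0.26) had intervals that held 0.

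A gene was counted as a shared response where it changed by 1 log2 unit or more and was called alike in both constructs, and where the 95% interval of its interaction lay wholly between -1 and 1. Of 487 genes that met the first condition, 225 met the second as well, 128 that rose (0.6% of those tested) and 97 that fell (0.455%). Of the 487, 65 were called in the interaction, 5 of them among the 225, and 202 were neither. The shared risers had medians of 1.61 and 1.28, and 20 of them rose by 2 log2 units or more in both constructs, while 0 of the shared fallers fell by as much in both. Il2ra, the CD25 chain of the interleukin 2 receptor, read 2.68 and 2.69, then 4.96 and 5.16 in scrambled cells, and 1.72 and 1.84, then 3.94 and 3.85 in sponge cells. It rose by 2.37 and 2.12 from a lower start in sponge cells (interaction -0.25, interval -0.58 to 0.08). The histone gene H2ac18 rose by 2.91 and 2.68, and Nyx, a leucine-rich repeat gene, by 2.07 and 2.17. Gh, Adam19 and the interferon-induced Gbp11 rose by 2.37, 2.36 and 2.49 in scrambled and by 2.01, 2.04 and 2.14 in sponge cells. All of these except Gbp11 were lower in sponge cells in both conditions by limma.

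The shared fallers had medians of -1.32 and -1.21, and the genes named here beside Ccnd2 were picked after their values were seen. Asns, the asparagine synthetase of the amino acid response, read -0.19 and -0.17, then -1.97 and -2.10 in scrambled cells, and 1.49 and 1.40, then -0.37 and -0.63 in sponge cells. The sponge arrays were higher in both conditions, while the falls of 1.86 and 1.94 were nearly equal (interaction -0.09, interval -0.47 to 0.29). Chac1, of the same stress response, fell by 1.31 and by 1.77. The amino acid transporter gene Slc7a5 fell by 1.54 and by 1.03, and the mitochondrial serine enzyme gene Shmt2 by 1.40 and by 1.02. The ribosomal protein genes Rps2 (falls of 1.33 and 1.22) and Rplp1 (1.03 and 1.24) and the RNA-binding Hnrnpa1 (1.09 and 1.02) were in this set as well. Ribosomal protein genes have many near-identical pseudogene copies that probes may share, so their values are uncertain.

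**Figure D5:**
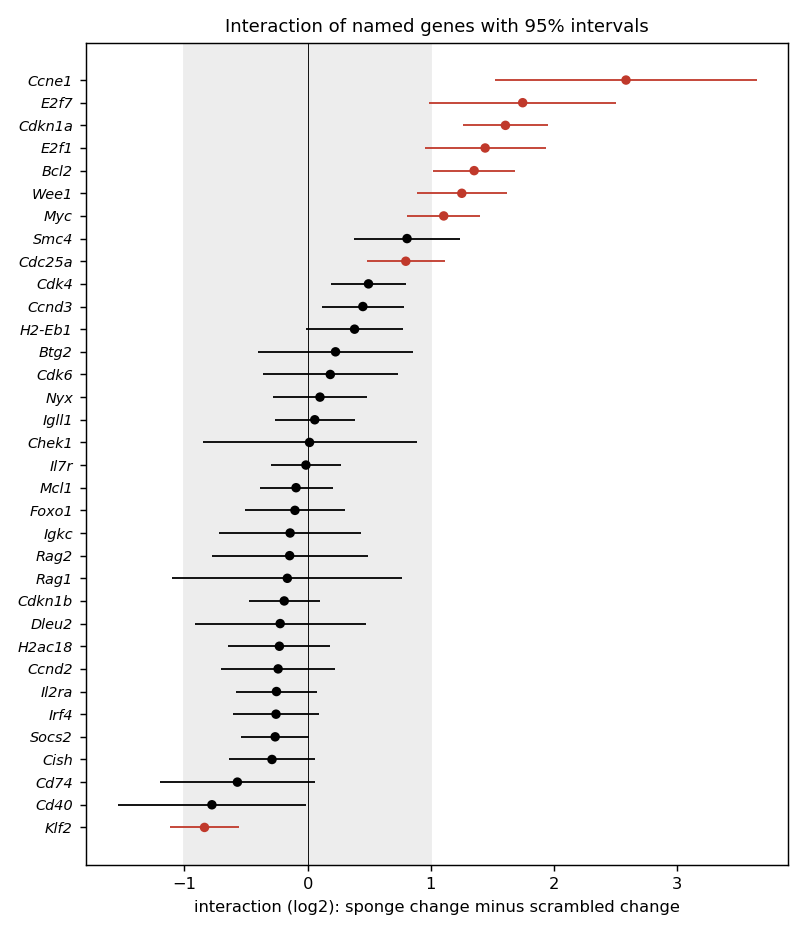
Interaction (x axis, log2, change in sponge cells minus change in scrambled cells) of 34 named genes with 95% intervals, red where called at an adjusted p under 0.05, with the band from -1 to 1 shaded. Ccne1 (2.58) lies farthest from 0, Ccnd2, Il7r and Igkc lie within the band with their whole intervals, and Rag1 reaches past it at -1.10.

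Beside -0.04 for all genes, the median interaction was -0.23 for lysosome and autophagy genes, of which 3 of 31 had a value above 0. It was -0.19 for interferon genes, 0.14 for the unfolded protein and ATF4 response, -0.04 for immediate early genes, -0.01 for p53 targets and -0.04 for the BCL2 family. Of 22 p53 targets 3 were called positive, Cdkn1a, Ddb2 (0.74) and Phlda3 (0.61), beside 4.32% of all genes. The microRNA processing list had 1 call, Dgcr8, among 16 genes, beside 5.27% of all genes.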

How the data were processed

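The authors hybridised 8 cultures to one-colour Cy3 arrays and deposited scanner tables with a processed signal in intensity units, background subtracted and detrended per the file headers (Agilent Feature Extraction 10.7.3.1, or 10.7.1.1 per the submitters' processing notes). The deposited value table, also intensity, has the same distribution on every array. Other deposited columns (flags, names) are used as labels. Outlier and control spots were dropped, log2 signals were set relative to each array's 75th percentile and averaged per probe, and a probe was kept if 1 or more groups had it well above background on both arrays (30963 of 55681). The brightest probe stood for each gene. Of the probes, 27319 were named by accession, 3528 by symbol and 551 by synonym. limma 3.58.1 (R 4.3.3) fitted 4 group means, and its moderated tests, two-sided, were adjusted by Benjamini-Hochberg across 21320 genes. For 5 genes an array was missing. Intervals are 95% and unadjusted. In simulated data each gene kept its overall mean and spread, with the scrambled withdrawal change in both constructs. A small part of the 21315 genes was given an interaction. Of genes changed by 0.5, 1 and 2 log2 units, 4.5%, 43.0% and 81.0% were recovered, with 11 false calls. Recovery depends on the share of genes that change, so these rates need not hold for the arrays. Same-numbered samples deviated together weakly (r = 0.0178 to 0.130), so the pairing rests on the study's description. Where a gene was not well above background on either array of a group, an "at least" fold is given. For it, each array of that group was set at its lowest signal above background, or at the gene's own reading where that was higher. Named genes are the 12 largest calls in each direction, up to 4 called members of smallest p per list, up to 8 shared responses in each direction and a fixed set. Other list members named were chosen after their values were seen. The comparison, the lists and the named genes were chosen with earlier results of these data known. Probes carry mm9 positions, and no exon or untranslated region was assigned. The array number limits the precision. Results of some genes are not reported here.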

Additional observations from a re-analysis of the deposited data

Results flagged for a closer look

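The withdrawal response differed between sponge and scrambled cells, by limma's interaction term, for 921 genes with a positive and 203 with a negative value. The 12 with the largest fitted positive values were Strip2 (interaction 4.73), Tnfrsf14 (2.96), Rprm (2.74), Fam90a1b (2.72), Ccne1 (2.58), Arc (2.45), Aurkb (2.30), Cdc6 (2.22), Ccdc96 (2.20), Tcf19 (2.18), Rnf227 (2.17) and Acot7 (2.16). The 12 with the largest fitted negative values were 5430401H09Rik (-2.78), Cybb (-2.63), Kynu (-2.52), Klra4 (-2.28), Cacna1e (-2.25), B4galnt2 (-2.23), Efcc1 (-2.21), Tmco5 (-2.10), Ccdc153 (-2.01), Cd69 (-1.98), Ankrd6 (-1.90) and Gm11758 (-1.85). Of the fixed genes, E2f7 (1.75), Cdkn1a (1.61), E2f1 (1.44), Bcl2 (1.35), Wee1 (1.25), Myc (1.10), Cdc25a (0.80) and Klf2 (-0.84) were called. Those of Strip2, Rprm, Fam90a1b, Aurkb, Ccdc96 and the 12 negative ones except Cd69 rest on groups with signal near background and are no exact differences. Fam90a1b passed the signal filter only through the group where it is high. With normexp background correction Aurkb was 0.25, Rprm 0.23, Fam90a1b 0.14, Ccdc96 0.06, Cacna1e -0.19 and Klra4 -0.34. Signal near background and 1 probe of several (Tnfrsf14, E2f7 and Cdkn1a) limit some of these, and the part of slide position was not tested.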

How the results depend on the processing

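The counts of positive and negative interactions were 921 and 203. They were 0 and 0 without the signal filter (34740 genes tested), with the replicate block and with the replicate block by clone. Without 1 array they ranged from 0 to 892 and from 0 to 724, and the lone array of a group was then assumed to vary like the other groups. They were 1666 and 639 with an intensity trend, 499 and 99 with array weights by group, and 1674 and 754 at an adjusted p under 0.10, a threshold added after seeing the data. Negative counts were 457 with quantile normalization, 435 with normexp, 452 with the deposited value table and 394 among probes well above background on all 8 arrays. Shared responses, 225, were 141 with normexp and 187 to 261 without 1 array. No named gene that was called changed direction under the 18 alternatives. Among these the intensity trend, the array weights by group and both replicate blocks cannot change the direction for a gene measured on all arrays. Of the 1124 called genes, 1123 kept theirs without the filter and 1122 with the mean over probes. Of 2053 values of 115 named genes, 844 lost their call, 14 gained one, and the cause was not tested. Only values of the 84 called genes could lose a call. The number of arrays limits small differences.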
